A study of Mus musculus with 6 samples.

Results

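The regions described here are stretches of open chromatin that were called in all 3 kidney libraries taken after unilateral nephrectomy (UNx) and in none of the 3 libraries taken after a sham operation (Sham). They were found by merging all intervals of the 6 deposited peak lists on chromosomes 1 to 19 and X wherever they overlapped by at least 1 bp, and by keeping each merged region that had an interval in every UNx list and in no Sham list. Of 126087 merged regions, 1570 (1.25%) met this rule and are called UNx-only regions below. They were chosen by the presence of deposited peaks in these same libraries, so their difference between the operations is described and carries no test.

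The libraries came from wild-type male C57BL/6 mice operated on at 7 weeks of age, and tissue was taken at 24 h. In the Sham group the mice had a sham operation, and in the UNx group 1 kidney was removed by surgical excision. Each library was made from 3 proximal tubule S1 segments dissected by hand, which were lysed and cut together by the Tn5 transposase. The labels do not say that each library came from a different mouse, so spread between libraries and p-values may be technical. The lists hold no read counts, and the sequencing depth is unknown.

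S1 is the first segment of the proximal tubule, where most filtered glucose, amino acids and small proteins are taken back from the urine. When a kidney is lost, the remaining one enlarges, largely through growth of proximal tubule cells. ATAC-seq marks DNA that the transposase can reach, which includes promoters and enhancers, and the gene with the nearest start is not always the gene that such a region controls.

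The lists held 77346 to 97824 distinct intervals in the Sham and 93573 to 100990 in the UNx libraries, with the shortest list in Sham 2. Their median −log10 q ran from 12.1 in Sham 2 to 26.5 in UNx 3. Promoters of the S1 marker list were present for 22 of 22 genes in all 6 lists. Of 19 markers of other nephron segments, 8 were in all 6 lists and 7 in none, with 8 to 11 in each library. Of 17 markers of endothelial, glomerular, immune and stromal cells, 4 (Kdr, Nphs1, Podxl and Col1a1) were in all 6 lists and 8 in none, with 6 to 9 in each library. In such bulk libraries, fewer cells of a type and less open chromatin per cell cannot be told apart.

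The 8 sequences below show what these regions look like at the DNA level, namely the 6 strongest that lie outside exons and the next 2 strongest at promoters. Each covers the strongest summit and 100 bp on either side in GRCm38, plus strand, and is named by the gene of the nearest protein-coding start. Their positions are chr4:62481398-62481598 in an intron of Bspry, chr1:118648062-118648262 in an intron of Tfcp2l1, chr6:146461023-146461223 in an intron of Itpr2 and chr14:21657455-21657655 in an intron of Kat6b, for which the nearest start is that of Dupd1. The others are chr19:18304741-18304941 between genes with Ostf1 as the nearest, chr9:45403021-45403221 at a start of Fxyd2, chr8:88362619-88362819 upstream of Brd7 and chr8:13201304-13201504 upstream of Grtp1. Capitals mark matches to 25 consensus strings of transcription factor families. They are the NFI string in Tfcp2l1, the AP-1 string in the Kat6b intron, the E-box in Fxyd2, the ETS string in Brd7, and the C/EBP string and then the HNF4 string on the minus strand in Grtp1. The Bspry, Itpr2 and Ostf1 windows held none of the 25.
Bspry: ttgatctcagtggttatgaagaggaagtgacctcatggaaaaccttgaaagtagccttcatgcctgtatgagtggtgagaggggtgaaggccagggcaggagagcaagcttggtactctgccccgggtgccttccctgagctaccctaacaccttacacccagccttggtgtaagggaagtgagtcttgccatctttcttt
Tfcp2l1: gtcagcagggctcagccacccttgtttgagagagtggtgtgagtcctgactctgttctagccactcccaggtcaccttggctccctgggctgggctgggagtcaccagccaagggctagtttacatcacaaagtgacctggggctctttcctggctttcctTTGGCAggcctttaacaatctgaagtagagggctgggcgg
Itpr2: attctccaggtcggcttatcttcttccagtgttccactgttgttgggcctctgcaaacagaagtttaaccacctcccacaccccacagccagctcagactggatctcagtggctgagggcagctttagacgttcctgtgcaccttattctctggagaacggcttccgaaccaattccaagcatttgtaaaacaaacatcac
Dupd1: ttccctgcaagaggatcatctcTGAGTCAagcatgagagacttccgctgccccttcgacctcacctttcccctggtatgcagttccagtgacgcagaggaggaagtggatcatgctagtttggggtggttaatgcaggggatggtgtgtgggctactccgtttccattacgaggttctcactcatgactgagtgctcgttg
Ostf1: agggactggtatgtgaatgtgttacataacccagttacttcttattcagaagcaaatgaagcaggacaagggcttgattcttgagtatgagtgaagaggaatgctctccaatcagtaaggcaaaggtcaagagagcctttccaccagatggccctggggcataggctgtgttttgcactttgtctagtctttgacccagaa
Fxyd2: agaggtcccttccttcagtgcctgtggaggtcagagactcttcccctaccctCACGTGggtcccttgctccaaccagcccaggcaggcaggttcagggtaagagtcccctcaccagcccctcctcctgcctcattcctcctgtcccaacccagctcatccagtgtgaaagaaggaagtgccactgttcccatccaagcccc
Brd7: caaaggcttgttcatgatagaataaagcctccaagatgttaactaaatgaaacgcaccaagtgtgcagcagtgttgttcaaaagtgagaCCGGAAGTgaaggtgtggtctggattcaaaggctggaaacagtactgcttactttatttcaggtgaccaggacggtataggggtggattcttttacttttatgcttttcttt
Grtp1: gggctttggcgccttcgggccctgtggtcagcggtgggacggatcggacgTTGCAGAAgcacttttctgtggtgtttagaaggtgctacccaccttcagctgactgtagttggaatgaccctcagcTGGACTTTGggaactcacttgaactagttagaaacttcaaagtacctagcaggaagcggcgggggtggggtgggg

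Most UNx-only regions were weak peaks. Strength was measured as the percentile rank of a peak's −log10 q within its own list, with 100 for the strongest, and each region was described by the lowest of its ranks in the 3 UNx lists. The median of this lowest rank was 10.5 (quartiles 4.35 and 19.6). For regions in all 6 lists, the lowest rank over all 6 had a median of 53.3. Only 6 regions had all 3 ranks above 50, 247 (15.7%) had all 3 above 25, and 435 (27.7%) had a lowest rank below 5. Over the 3 lists that held them, the 635 Sham-only regions had a median lowest rank of 12.1. The 6994 regions found in exactly 3 lists of mixed operations had 8.92. No UNx-only region exceeded a lowest rank of 58.8, whereas the Sham-only regions reached 99.2 and the mixed ones 49.9. These are extremes of few regions, as only 5 Sham-only regions had a lowest rank above 50.

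**Figure D1:**
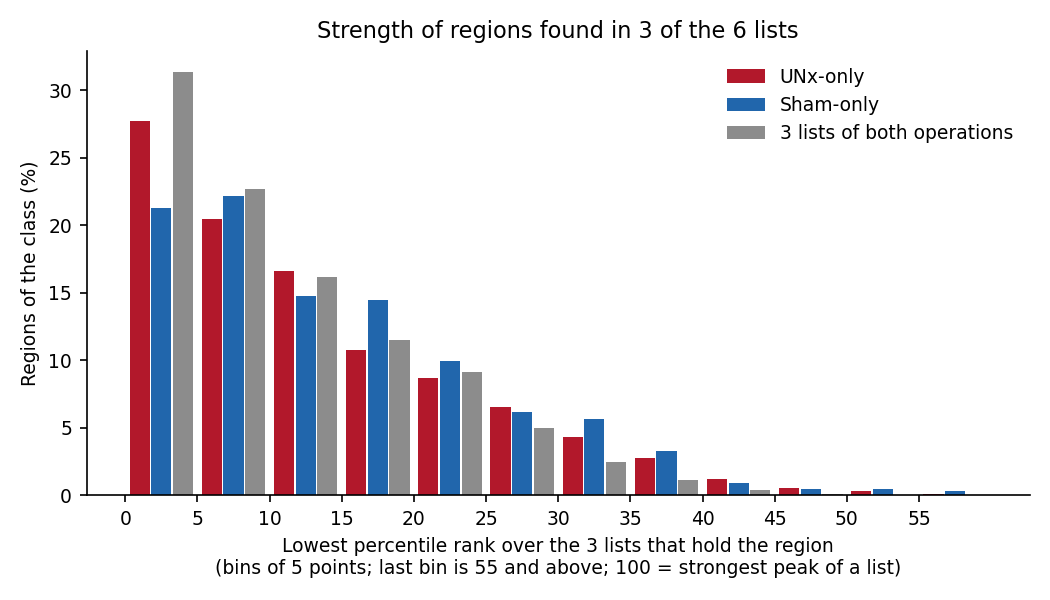
Share of regions (vertical axis, %) by the lowest percentile rank over the 3 lists that hold them (horizontal axis, bins of 5 points, the last open to 100), for UNx-only, Sham-only and mixed regions present in exactly 3 lists. In all 3 classes most regions sit in the lowest bins, with 27.7% of UNx-only regions below 5.

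The 3 UNx libraries did not rank these regions alike. Median ranks were 20.3 in UNx 1, 20.2 in UNx 2 and 24.9 in UNx 3, and 61, 55 and 120 regions lay above 50 in these libraries. UNx 3 gave the highest of the 3 ranks for 653 regions, UNx 2 for 478 and UNx 1 for 439. Spearman correlations of the ranks across the 1570 regions, which share libraries and are no independent replicates, were 0.296 between UNx 1 and 2, 0.378 between UNx 1 and 3 and 0.271 between UNx 2 and 3. The authors' fold enrichment over background at the summit had similar medians of 3.48, 3.36 and 3.41, while their −log10 q had medians of 5.41, 6.77 and 9.10.

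Regions just outside the rule were mostly weak peaks too. Another 2667 regions were in all 3 UNx lists and 1 Sham list, with a median lowest UNx rank of 13.4, and the Sham list was Sham 1 for 1290, Sham 3 for 1155 and Sham 2 for 222. A further 4186 were in 2 UNx lists and no Sham list, and UNx 1 was the missing list for 1994, UNx 2 for 1314 and UNx 3 for 878. The lowest of their 2 ranks had a median of 10.01, which is not like for like with a lowest of 3. Median widths were 358 bp with 1 Sham list and 256 bp with 2 UNx lists, against 320 bp inside the rule. When each list was cut to its 77346 strongest peaks, the rule gave 1036 UNx-only and 928 Sham-only regions. With peaks of a −log10 q of at least 5 and lists of unequal length, it gave 1354 and 393. Without Sham 2, the shortest list, Sham-only regions (2551) outnumbered UNx-only regions (1794), whereas leaving out any other library gave 899 to 1161 Sham-only and 2659 to 3617 UNx-only regions. The number of Sham-only regions, which are used for comparison below, thus rested on Sham 2.

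The strongest UNx-only region lay in an intron of Bspry, which encodes a B-box and SPRY domain protein, 1445 bp past its start and only 91 bp from a region open in all 6 lists. Its ranks were 60.9, 63.2 and 58.8 in UNx 1, 2 and 3, close together. Tfcp2l1, a transcription factor gene of distal nephron and collecting duct cells, held the next region in an intron at 20216 bp from its start, with ranks of 64.3, 53.9 and 68.5. Itpr2 encodes a calcium release channel of the endoplasmic reticulum, and its intron region ranked at 70.9, 53.4 and 71.9. That region stood 29134 bp from any region shared by all lists, which sets it apart from the Bspry one.

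The Kat6b intron region, in the gene of a histone acetyltransferase, ranked at 55.5, 52.8 and 57.6 in UNx 1, 2 and 3. The region nearest to Ostf1 was 326948 bp from that start and 103594 bp from the nearest shared region, and ranked at 55.9, 51.2 and 56.4. A region whose summit was 17 bp upstream of an annotated start of Fxyd2, the gamma subunit that modulates the sodium pump, ranked at 51.0, 51.0 and 53.9. These 3 regions had the most even ranks among the 6 that stayed above 50 in every UNx list, together with Bspry.

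The rest of the 12 strongest were nearest to Peli2 (a ubiquitin ligase of innate immune signalling), Glud1 (glutamate dehydrogenase, which feeds ammonia production in the tubule), Tob1 (an antiproliferative protein), the predicted model Gm49337, Brd7 (a bromodomain subunit of a chromatin remodelling complex) and Gtf2i (a general and signal-dependent transcription factor). Their lowest ranks ran from 47.3 for Gtf2i to 49.6 for Peli2. Glud1 was highest in UNx 2, with ranks of 52.0, 63.7 and 48.5 in UNx 1, 2 and 3. Of the 12, 7 lay in an intron of a coding gene, 7 within 2.5 kb of a coding start, and 6 within 500 bp of a region shared by all 6 lists.

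**Figure D2:**
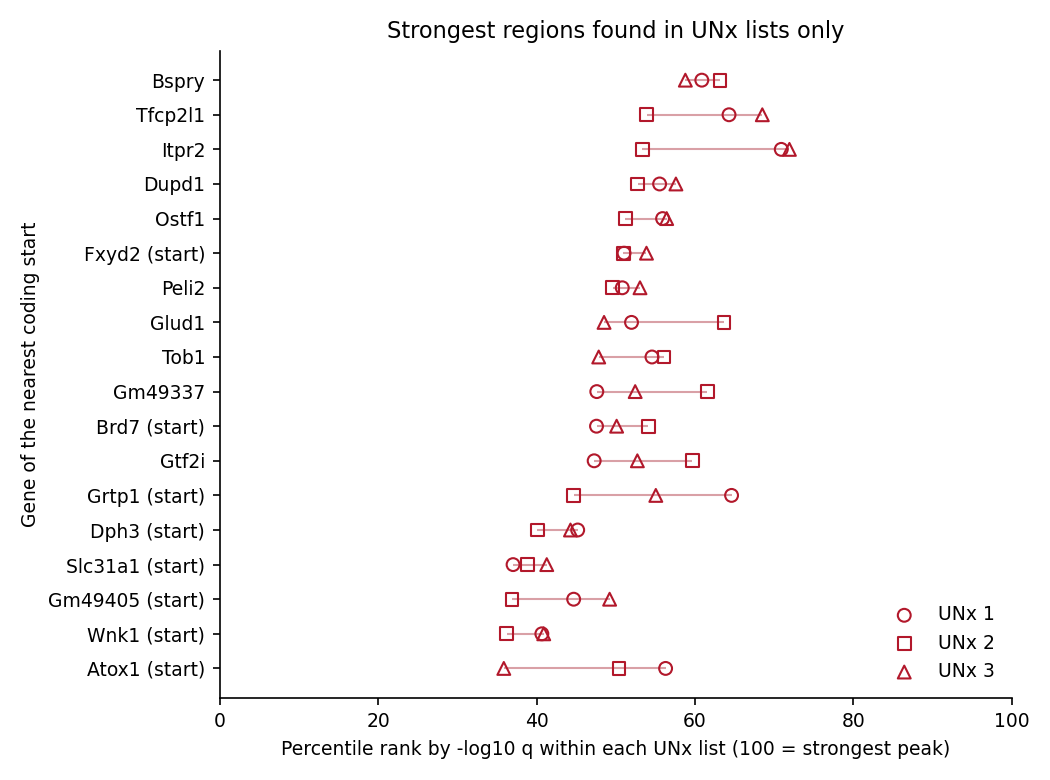
Percentile rank of −log10 q within each UNx list (horizontal axis, 0 to 100) for the 12 strongest UNx-only regions and the 8 strongest within 1 kb of a coding start (marked start), 18 regions in all, named by the nearest coding start. Circles, squares and triangles are UNx 1, 2 and 3, lines span their range, and all 18 are absent from the 3 Sham lists by the rule; Fxyd2 and Bspry are even and Itpr2 and Tfcp2l1 are lower in UNx 2.

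UNx-only regions often lay beside a region that was open in every library. Their median gap to the nearest region of all 6 lists was 2458 bp, against 10650 bp for Sham-only regions, 5826 bp for mixed regions in 3 lists and 5378 bp for all merged regions. Within 500 bp of such a region were 435 UNx-only regions (27.7%), but 3.62% of Sham-only, 14.2% of mixed and 13.8% of all regions. UNx 3 had the widest intervals, with a median of 422 bp against 342 to 375 bp in the other 5 lists, and the part of this in the closeness was not tested. With windows of 250 bp on either side of each summit in place of the deposited intervals, UNx-only regions numbered 1205 and Sham-only regions 613.

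Regions beside a shared region and regions standing alone differed in placement. Of the 435 within 500 bp, 102 (23.4%) had their summit within 1 kb of a coding start. Of the 1135 others, 47 (4.14%) did. The comparison classes split the same way, with 15.5% and 4.55% of mixed regions and 13.0% and 2.78% of Sham-only regions. For the 435 and the 1135 UNx-only regions, median lowest ranks were nearly equal, at 11.2 and 10.3. Introns of coding genes held 46.7% of the first and 55.2% of the second, and 19.1% and 28.1% were intergenic.

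**Figure D3:**
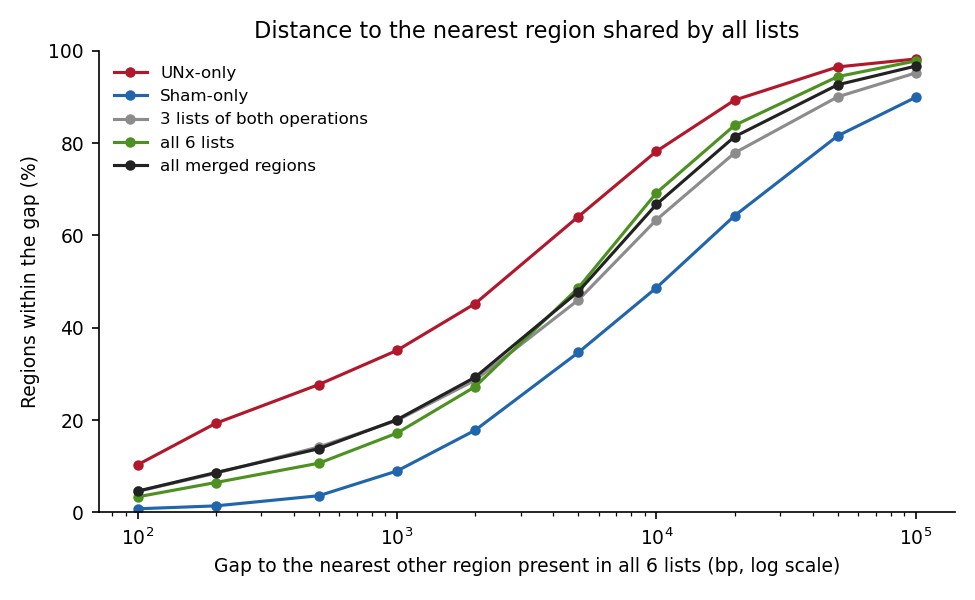
Cumulative share of regions (vertical axis, %) whose gap to the nearest other region present in all 6 lists is at most the value on the horizontal axis (bp, log scale), by class. The UNx-only curve lies above the others throughout, with 27.7% within 500 bp and 64.1% within 5 kb, and the Sham-only curve lies below, with 3.62% and 34.6%.

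Most UNx-only regions lay away from promoters. Their strongest summit was within 1 kb of a protein-coding start in 149 cases (9.49%), against 13.8% of all regions, 3.15% of Sham-only and 6.11% of mixed regions. Introns of coding genes held 829 (52.8%, against 46.8% of all regions), and 402 (25.6%) were intergenic, against 40.9% of Sham-only regions. Coding parts of exons held 44, untranslated parts 23, starts of noncoding genes 54 and bodies of noncoding genes 69. The distance of 1 to 10 kb from a start held 27.0% of UNx-only regions and 21.1% of all regions. The promoter share was 6.14% with the fixed windows around summits, and with a promoter window of 2.5 kb it was 18.1%, near the 18.6% of all regions.

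**Figure D4:**
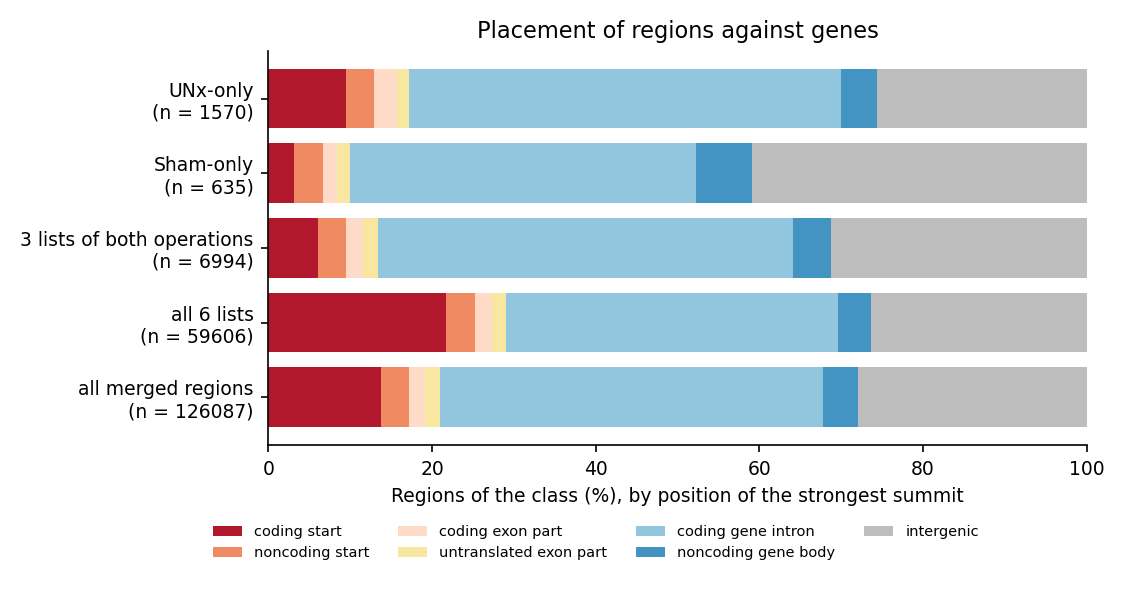
Placement of regions by the position of the strongest summit (horizontal axis, % of the class) for UNx-only, Sham-only, mixed (3 lists of both operations), all-6-list and all merged regions, with the number of regions beside each bar. Coding starts hold 9.49% of UNx-only regions, more than of Sham-only (3.15%) and less than of all regions (13.8%), and introns hold 52.8%.

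At promoters the strongest UNx-only regions, after Fxyd2 and Brd7, were those of Grtp1, Dph3, Slc31a1, the predicted model Gm49405, Wnk1 and Atox1. Brd7 ranked at 47.6, 54.1 and 50.1 in UNx 1, 2 and 3, with its summit 525 bp upstream of the start. Grtp1, a TBC domain protein, ranked at 64.6, 44.7 and 55.1. Slc31a1 is the high-affinity copper importer and ranked at 37.0, 38.8 and 41.3, with its summit 529 bp into the gene. Atox1 is a copper chaperone and ranked at 56.3, 50.4 and 35.9, while Wnk1, a kinase that governs salt transport, ranked at 40.7, 36.2 and 40.9. Of these 8 promoter regions, 7 lay within 500 bp of a region shared by all lists. The exception was Fxyd2, where the nearest shared region was 2050 bp away. At Brd7, Dph3, Slc31a1, Gm49405 and Wnk1 the shared region covered the gene start, so the UNx-only region flanked a promoter open in every library. Whether this held at Grtp1 and Atox1 was not tested.

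UNx-only regions had a median width of 320 bp and 1 summit in 80.1% of cases, against 738 bp and 28.6% for regions of all 6 lists. The other regions of exactly 3 lists were narrower still, at 291 bp and 85.7% for Sham-only and 285 bp and 85.1% for mixed regions. The median GC content within 100 bp of the summit was 50.7%, as for all regions, and 47.8% in Sham-only regions. Regions at either extreme of GC content were fewer than among all regions, with 3.76% under 40% GC (6.49% of all, 12.6% of Sham-only) and 9.36% over 60% GC (13.8% of all, 4.09% of Sham-only). Repeat-masked bases made up 12.2% on average, against 12.5% in all regions and 14.6% in Sham-only regions.

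The 1570 regions fell to 1340 nearest coding genes. Of these, 1151 had 1 UNx-only region, 152 had 2, 33 had 3 and 4 had 4. The genes with the most were Thsd4 (an extracellular matrix protein of the thrombospondin repeat family), Ablim1 (an actin-binding LIM protein), Klf6 (a zinc finger transcription factor) and Auts2 with 4 each, then Itpr2 and Tob1 with 3. Their numbers of merged regions of any kind differed: Auts2 was nearest to 113, Ablim1 to 65, Itpr2 to 58, Thsd4 to 47, Tob1 to 33 and Klf6 to 28. The 4 UNx-only regions were thus among 113 at Auts2 but among 28 at Klf6. Sham-only regions were nearest to Ablim1 in 2 cases, to Auts2 in 1 and to the other 4 genes in none.

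Some UNx-only regions lay in runs, and the runs named here were chosen after their values were seen. With gaps of at most 50 kb, 5 regions spanned 168 kb on chromosome 6 (38749903 to 38917883) around Hipk2, a nuclear kinase, with Clec2l and Tbxas1. Another 4 spanned 78.8 kb around Myzap and Cgnl1 on chromosome 9, and Cgnl1 encodes paracingulin of cell junctions. On chromosome 19, 4 spanned 71.3 kb around Flrt1 and Otub1. Within 50 kb of another UNx-only region were 327 (20.8%), compared with 6.30% for the fewer Sham-only regions and 41.9% for the more numerous mixed ones, each counted within its own class.

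The gene lists below describe which functions lie near UNx-only regions. For each list the share is the number of UNx-only regions among all merged regions whose nearest coding start belongs to the list, to be read against 1.25% over all regions. Counts of Sham-only regions are to be read against their smaller share of 0.504% over all regions, so few or none are found in most lists. No test was made on these shares or counts.

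Near genes of S1 transport and identity lay 10 UNx-only regions among 468 (2.14%), at 7 of 22 genes, and no Sham-only region. An intron of Lrp2, which encodes the endocytic receptor megalin, held one with ranks of 31.8, 34.4 and 48.5 in UNx 1, 2 and 3. Slc4a4, the basolateral sodium bicarbonate cotransporter, held 3 in its introns, the strongest at 42.9, 30.6 and 45.4. Dab2, an adaptor that works with megalin, had 2 regions. Slc7a7 and Slc7a8 (basolateral amino acid exchangers) and Slc5a12 (a lactate cotransporter) had 1 each. The Slc7a8 region was uneven, at 66.6, 16.1 and 45.6, with the lowest rank in UNx 2.

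Genes of the later proximal tubule (S2 and S3) had no UNx-only region among 167, and 6 Sham-only regions. Markers of other nephron segments had 2 among 139 (1.44%), those of Tfcp2l1 and Cldn10, and markers of non-epithelial cells had 0 among 116. Over all solute carrier genes (Slc symbols) there were 36 UNx-only regions among 3061 (1.18%), at 30 genes. Cytochrome P450 genes (Cyp symbols) had 0 among 411 and 4 Sham-only regions, and olfactory and vomeronasal receptor genes had 1 among 343 and 12 Sham-only regions. Ugt genes, of glucuronidation, had 5 among 132 (3.79%) and 4 Sham-only regions, and Abc transporter genes 9 among 364 (2.47%).

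Nuclear receptor genes had 12 UNx-only regions among 709 (1.69%) at 7 of 30 genes, and no Sham-only region. Rxra, the shared dimer partner of many receptors, had 3, the strongest in an intron with ranks of 57.8, 29.9 and 45.5. Nr2f2, an orphan receptor also called COUP-TFII, had 3, the strongest at 42.7, 29.9 and 65.5. Ppara, a receptor of fatty acid metabolism, had 2 weak ones, at 7.11, 27.3 and 23.3 and at 14.03, 2.68 and 6.97. The glucocorticoid receptor gene Nr3c1, the vitamin D receptor gene Vdr, Esrrg and Nr2f6 had 1 each. Fatty acid oxidation genes, Ppara included, had 4 among 287 (1.39%), the others being at Plin2 (a lipid droplet protein) and Acsl1 (which activates fatty acids). Sterol and fatty acid synthesis genes had 3 among 225 (1.33%), among them those at Sqle and Me1.

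Circadian clock genes had 7 UNx-only regions among 308 (2.27%) at 5 of 19 genes, with no Sham-only region. Rora, an activator of the clock loop, held 3 in introns, the strongest at 42.4, 50.7 and 57.0. Clock had a region 1033 bp upstream of its start, at 28.5, 50.1 and 44.7. Cry2 (a clock repressor), Nr1d1 (REV-ERB alpha) and Bhlhe40 had 1 each, and the Nr1d1 one lay in an exon of Thra. The highest rank among the 7 regions was 57.0, that of Rora in UNx 3.

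Immediate early genes, which respond to signals without new protein synthesis, had 7 among 276 (2.54%) at 4 of 24 genes and 1 Sham-only region. Klf6 accounted for 4 of them, the strongest in its intron at 34.2, 27.1 and 32.9. Btg2, an antiproliferative gene, had a region 2214 bp upstream at 18.6, 35.1 and 64.3, highest in UNx 3. Egr3 and Jun had 1 each, with lowest ranks of 2.13 and 1.81.

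Cell cycle genes had 2 among 277 (0.722%) and 5 Sham-only regions. One was 607 bp into Ccne2 (cyclin E2) with ranks of 45.1, 39.0 and 34.7 in UNx 1, 2 and 3, and 290 bp from a shared region. The other was in an intron of Ccnd3 (cyclin D3) at 48.6, 44.3 and 15.7. Growth factor and mTOR genes had 8 among 632 (1.27%), the share of all regions, at Irs2, Igfbp5, Pik3r1, Pdgfa, Egfr, Fgfr2, Vegfa and Igf1r. Irs2, an insulin receptor substrate, had the strongest, 90257 bp upstream, at 32.6, 23.3 and 34.9. Genes of the IL-6 family and STAT pathway had 0 among 190.

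BMP and TGF-beta genes had 11 among 646 (1.70%) at 7 of 34 genes, and 3 Sham-only regions. Among ligands, Inhba (an activin subunit) had 1 at 42.2, 35.8 and 30.6, and Tgfb2 had 2. Acvr1, a type I receptor, had 1 within 1 kb of its start at 52.1, 12.5 and 48.4, low in UNx 2. The signal transducer Smad3 had 2, the inhibitory Smad6 and Smad7 had 2 and 1, and the target Id2 had 2. Hippo pathway genes had 5 among 260 (1.92%): Amotl2, which binds the coactivator YAP, had 2, Tead1, a transcription factor partner of YAP, 2, and Vgll4, a TEAD cofactor, 1. The stronger Amotl2 region, 1023 bp upstream of the start, ranked at 39.9, 43.3 and 71.9. Tubule injury and repair genes had 6 among 303 (1.98%), with 2 each at Krt20 (a keratin) and Sox4 and 1 each at Plin2 and Pax2. The Krt20 regions were at its start (18.3, 21.7 and 51.4) and 20958 bp upstream (37.0, 30.8 and 31.4).

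Consensus strings were counted on both strands, up to 100 bp from the strongest summit. At least 1 of the 25 strings was in 905 UNx-only regions (57.6%) and in 61.9% of all regions. The string of HNF4, a nuclear receptor that maintains proximal tubule cells, CAAAGTCCA, was in 49 UNx-only regions (3.12%), against 2.14% of all, 0.945% of Sham-only and 1.76% of mixed regions. The string of the estrogen-related receptors (ERR), TCAAGGTCA, was in 16 (1.02%), against 0.688% of all and 0.315% of Sham-only regions. The HNF4 string can overlap the DR1 string GGTCAAAGG, which was in 14 (0.892%). The string of HNF1, another tubule factor, GTTAATNAT, was in 14 (0.892%), against 2.61% of all and 2.99% of Sham-only regions. CTCF, which organises chromatin loops, had AGNGGGCGC in 11 (0.701%) and in 2.40% of all regions. The glucocorticoid receptor string ACANNNTGT was in 5.41% of UNx-only, 5.82% of all and 10.2% of Sham-only regions. The AP-1 string TGANTCA was in 7.90%, 7.56% and 9.76%. For both, UNx-only regions lay near the share of all regions. A match is a description of the letters and not of binding.

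Base composition moved with these shares and was therefore held within ranges. Among regions of 40 to 50% GC, the HNF4 string was in 4.27% of UNx-only, 2.85% of all and 1.55% of Sham-only regions. In the same range the HNF1 string was in 1.68% of UNx-only and 3.75% of all regions, and the CTCF string in 0.762% and 1.48%. At 50 to 60% GC the HNF4 string was in 2.68% and 2.0%. The HNF1 share was 1.74% with the 77346 strongest peaks of each list and 1.67% without Sham 1. The HNF4 share was 2.61% with the 77346 strongest peaks and 2.36% with a −log10 q of at least 5. It was 3.49% with fixed windows and 2.41% to 3.12% with 1 library left out. With the deposited lists, regions of all 6 lists held the HNF4 string in 2.54% of cases, close to the lower of these shares. Shares of other classes are not given for the other settings, so the size of the excess there is not known. Of the 49 regions with the HNF4 string, 42 stood more than 500 bp from any shared region (3.70% of those), and 7 lay closer (1.61%). The same direction was seen in mixed regions (1.95% and 0.605%) and in Sham-only regions (0.980% and 0%). The strongest 392 UNx-only regions held the HNF4 string in 2.04% of cases and the weakest 393 in 3.31%.

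**Figure D5:**
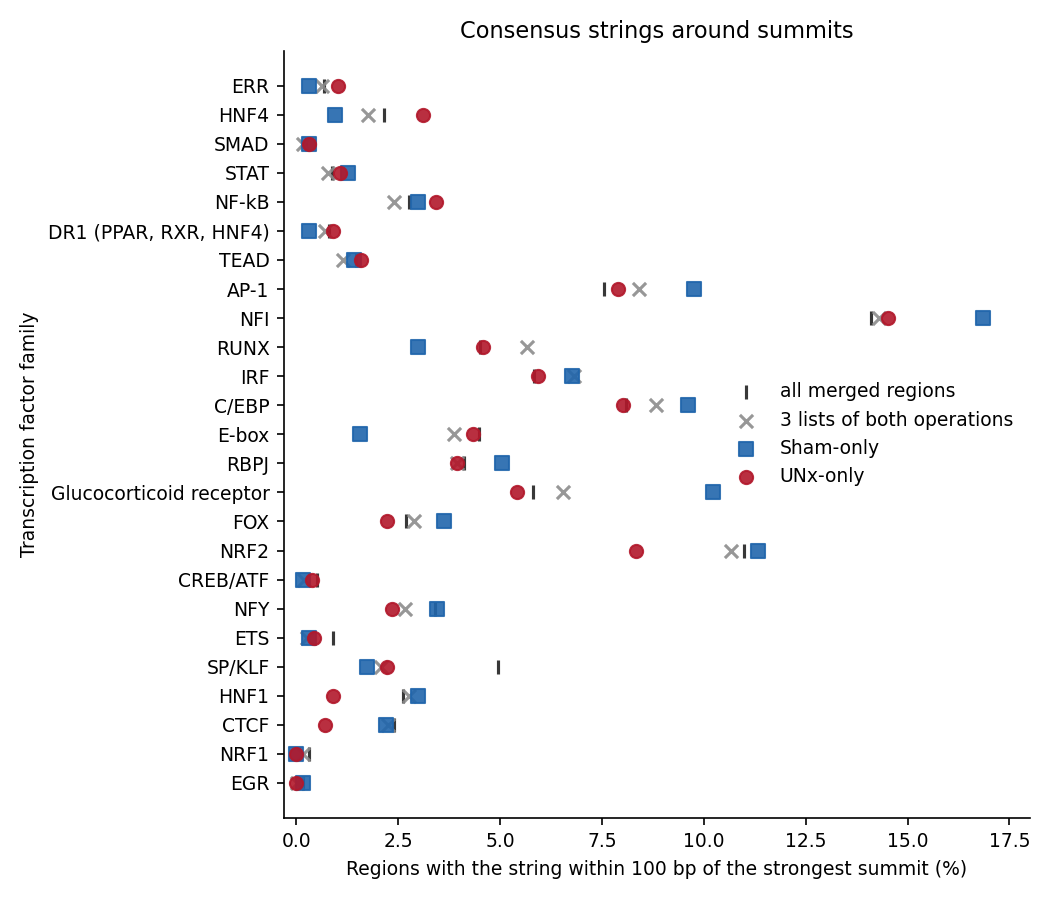
Share of regions with each family's consensus string within 100 bp of the strongest summit (horizontal axis, %) for UNx-only, Sham-only, mixed (3 lists of both operations) and all merged regions, ordered by the ratio of UNx-only to all regions. ERR (1.02% against 0.688% of all regions) and HNF4 (3.12% against 2.14%) are at the top, and HNF1 (0.892% against 2.61%) and CTCF (0.701% against 2.40%) are near the bottom.

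Promoters of the genes nearest to UNx-only regions were not used by the rule and were tested. The percentile rank among the 77346 strongest peaks of each list (0 when not among them) was compared between operations with limma over 74758 regions, with Benjamini-Hochberg adjustment over all of them. These 74758 included 356 UNx-only regions, which entered only through the UNx lists. Their part in the variance fit and in the adjustment was not tested. Of 1129 promoters of the nearest genes, 3 rose after UNx (0.266%, against 0.159% of the promoters of all coding genes) and 8 fell (0.709%, against 0.235%). In 8.95% the 3 UNx ranks lay wholly above the 3 Sham ranks, against 9.25% of all promoters, and in 149 (13.2%) wholly below, against 10.6%. The median difference was −0.30 percentile points for these promoters and −0.189 for all. With all deposited peaks the medians were 0.235 and 0.398, of the opposite sign.

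Of the 11 calls, the 5 of largest difference follow. Zfp536, a zinc finger gene, was at 45.4, 67.2 and 42.5 in Sham 1, 2 and 3 and at 9.54, 0 and 0 in UNx 1, 2 and 3 (difference −48.5, SE 11.0, limma adjusted p = 0.0471). Trip10, a membrane-curving adaptor of Cdc42, went from 78.5, 75.03 and 75.3 to 42.0, 22.3 and 57.9 (−35.5, SE 8.12, limma adjusted p = 0.0474). Bcl6, a transcriptional repressor, went from 78.4, 78.6 and 70.4 to 38.7, 50.4 and 52.4 (−28.6, SE 6.57, limma adjusted p = 0.0480). In these 3 genes the groups did not overlap, and the promoter ranked lower in the libraries that held the UNx-only region.

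Speg, a muscle kinase gene, rose from 51.5, 51.3 and 45.5 to 76.9, 91.6 and 77.4 (32.5, SE 6.08, limma adjusted p = 0.0297). Col8a1, a collagen chain, rose from 60.5, 55.3 and 51.5 to 85.6, 84.7 and 80.0 (27.6, SE 5.28, limma adjusted p = 0.0302). The other calls were lower for Atp2a2 (the calcium pump SERCA2), Sufu (an inhibitor of Hedgehog signalling), Mtmr12, Sik1 and Cdkn2aip, with differences from −19.5 to −10.4 points. Ltbp4, a latent TGF-beta binding protein, was higher by 10.3 points. Sufu was the only called gene with 3 UNx-only regions, the strongest with a lowest rank of 41.2. Its promoter was at 95.9, 96.6 and 96.1 in the Sham and at 87.9, 82.5 and 81.6 in the UNx libraries. No gene of the 15 gene lists was among the 11. With GC-corrected ranks limma called 0 of these promoters, and leaving out 1 library gave 0 to 4 calls. At an unadjusted limma p under 0.05 were 77 with the correction and 160 without it. The 160 were 60 higher and 100 lower of 1129, beside 752 higher and 987 lower of 13205 promoters of all coding genes. For the 77, no count over all promoters is given.

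The tested region nearest to each UNx-only region was compared in the same way, a comparison added after the data were seen. Of 1004 such neighbours, 6 rose (0.598%, against 0.435% of all tested regions that are not UNx-only) and 7 fell (0.697%, against 0.358%). The UNx ranks lay wholly above the Sham ranks in 140 (13.9%, against 11.5%) and wholly below in 118 (11.8%, against 11.8%). Of 841 neighbours within 5 kb, 5 were called higher (0.595%) and 4 lower (0.476%), to be read against the same 0.435% and 0.358%. These calls include Pde4b and Vps9d1, described below. In an intron of Rxra, at chr2:27685980-27686705 and 1588 bp from the strongest Rxra region, ranks went from 19.6, 25.0 and 28.1 in the Sham to 68.6, 56.6 and 64.5 in the UNx libraries (limma adjusted p = 0.0451). Next to the weaker Tead1 region, 702 bp away, they went from 51.8, 56.6 and 60.9 to 82.0, 89.1 and 81.2 (limma adjusted p = 0.03). Other neighbours went the opposite way. Next to the Atp2a2 region, 708 bp away, the called promoter of Atp2a2 went from 95.6, 95.9 and 91.6 to 81.1, 64.98 and 78.5 (limma adjusted p = 0.0297), and those of Mtmr12 and Trip10 also fell. Among the 1004, 18 were at 0 in all 3 lists of one operation and so entered the test only through the other. They include 2 of the 13 calls, at Pde4b (0, 0 and 0 in the Sham, 60.1, 41.2 and 57.4 in the UNx libraries) and at Vps9d1 (41.9, 40.9 and 58.0, then 0, 0 and 0), which are values with no test. Without these 18, 5 of 986 neighbours rose and 6 fell, against 309 and 249 of 72804 tested regions that are not UNx-only, counted alike. The groups were apart in 13.1% (higher) and 11.3% (lower) of the 986, against 10.9% and 10.8% of the 72804. With GC-corrected ranks limma called 0 of the 1004, and leaving out 1 library gave 0 to 7. At an unadjusted limma p under 0.05 were 194 with the correction and 192 without it. The 192 were 106 higher and 86 lower of 1004, beside 6565 higher and 7100 lower of 74402 tested regions that are not UNx-only. For the 194, no count over all regions is given.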

How the data were processed

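ATAC-seq libraries of microdissected S1 tubules (3 Sham, 3 UNx, grouped by the labels' treatment field) were analysed from 1 deposited narrowPeak list each, so peaks were called per library and not pooled. The submitters' processing notes name cutadapt 3.4, Bowtie, SAMtools, Picard, MACS2 2.2.7.1 and the mm10 build, and settings are not given in the sources used here. The deposited values per summit are the authors' fold enrichment (the ratio of signal to local background), −log10 p, −log10 q and a display score, of which −log10 q and fold were used. These describe and rank peaks within 1 list and grow with depth, which is unknown, so no depth-based interval is given.

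A peak was 1 distinct interval with its strongest summit. Merging at 1 bp was checked against bedtools 2.31.1. Python 3.11.15, pysam 0.24.0, GRCm38 and GENCODE M21 (basic) gave positions, GC content, repeat masking and strings within 100 bp of the summit. Promoter regions were tested with limma 3.58.1 in R 4.3.3 (trend and robust variance, two-sided, no covariate, threshold 0.05) on regions among the 77346 strongest peaks in at least 3 of 6 lists. A gene's promoter was the region of highest mean rank within 1 kb of its start, UNx-only regions left out. Simulated ranks were used to test this step. The labels do not say whether replicate numbers pair the libraries, and the main fit treated them as unpaired.

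Named were the 12 strongest regions, the 8 strongest within 1 kb of a start, the 6 genes nearest to most regions, up to 2 regions in each of 15 gene lists and the 5 called promoters of largest difference. Some regions that this rule selects are not reported here. Other names of list genes, families, runs and neighbours were chosen after their values were seen. The members, lists and strings were chosen with earlier results of these data known, and the excess of the HNF4 string and the deficit of the CTCF string had been seen there. Alternatives were equal-length lists, a −log10 q of at least 5, fixed windows, 50% reciprocal overlap, ranking by fold, a 2.5 kb promoter window, other scales, filters and variance models, GC-corrected ranks, a replicate block and leaving out each library.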

Additional observations from a re-analysis of the deposited data

How the results depend on the processing

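Of 10 alternatives for the number of UNx-only regions (1570), 6 moved it by over 1.5 times. It was 1036 with the 77346 strongest peaks of each list and ran from 1794 to 3617 when 1 library was left out, since the rule then asks for fewer lists. Without Sham 1 it was 2872, without Sham 3 2756, and without UNx 1, 2 and 3 it was 3617, 2959 and 2659. Sham-only regions (635) numbered 2551 without Sham 2, against 1794 UNx-only, and 899 to 1161 without another library. The promoter share (9.49%) was 6.14% with fixed windows, 18.1% with a window of 2.5 kb and 8.32% to 11.5% with 1 library left out. The median strength moved by less than the spread between libraries under the 10 alternatives run. The median GC content, equal in the 3 UNx libraries, was 50.2% to 51.2% under 9, a shift of at most 1 base of the summit window.

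Calls among nearest-gene promoters (11) numbered 18 with normal scores. They were 0 with all deposited peaks, no filter on the number of lists, no trend or robust variance, GC-corrected ranks, a replicate block, or that block with GC-corrected ranks, and 0 to 4 with 1 library left out (0 without Sham 1, Sham 3 or UNx 3, 1 without Sham 2, 2 without UNx 1 and 4 without UNx 2). Promoters at an unadjusted p under 0.05 in limma numbered 48 to 181 in these settings. Called neighbours (13) numbered 29 with normal scores, 1 with a replicate block, 0 with all deposited peaks, no filter, GC-corrected ranks or that block with GC-corrected ranks, and 0 to 7 with 1 library left out. Neighbours at an unadjusted p under 0.05 in limma numbered 153 to 195. Neither range has a count over all promoters or regions beside it, so neither is read as a result. The cause of the changes in calls was not tested. Each of the 5 named promoters kept its direction in 13 of 13 alternatives and was called in 1, with limma adjusted p of 0.00758 to 0.192 over all of them. Same-numbered libraries deviated from their group means with correlations of 0.00807, −0.100 and −0.0495. These show no shared deviation but cannot settle whether the numbers pair the libraries. With 3 libraries a group and depth unknown, the absence of a weak peak from a list may be a matter of depth, which was not tested.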

Other observations

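A few more UNx-only regions are given here as single values. They were chosen after their values were seen and stand for no group. A region 3618 bp upstream of the start of Atp1b1, a sodium pump subunit, and 81 bp from a region shared by all lists was even at ranks of 28.1, 28.6 and 29.4 in UNx 1, 2 and 3. The Atp1b1 promoter was not called, with a difference of 0.64 (SE 2.24, limma adjusted p = 0.913). A region 694 bp upstream of the start of Slc22a12, a urate transporter, ranked at 38.2, 30.7 and 42.2. Ezr, which encodes the membrane linker ezrin, had 3 regions, and the one at its start ranked at 15.4, 13.5 and 16.8. Protein tyrosine phosphatase genes (Ptp symbols) had 11 UNx-only regions among 706 (1.56%) at 7 genes and 2 Sham-only regions, against 1.25% over all regions.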
